A study of Mus musculus with 9 samples.

Results

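The genes described here make cholesterol and fatty acids, control that synthesis, or carry cholesterol out of the cell. They were listed by name, and a probe set belonged to them if the array's annotation gave it a single symbol on that list. Of the 35 listed genes 34 had such a probe set, and Acat2 had none. These 34 genes had 37 probe sets among 23397 with a listed gene, and Idi1, Fdft1 and Acaca had 2 each; for these, the probe set with the higher mean over all arrays stands for the gene unless stated.

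The arrays measured RNA of aortic valves cut out of C57BL/6J pups at postnatal day 1 and kept in culture, with the valves of 5 to 6 pups pooled for each sample. The explants were kept for 48 hours on floating filters in serum-containing medium, with 0.001% DMSO as the control, with all-trans retinoic acid (ATRA), the natural ligand of the retinoic acid receptors, at 1 µmol/L in DMSO, or with LE540, an antagonist of those receptors. The labels give neither a dose nor a vehicle for LE540, so whether doses matched is unknown, and whether the DMSO arrays carry the vehicle of LE540 is unknown too. Each group had 3 arrays, each a separate pool. A pool of whole explants holds several cell types, so fewer cells of a type and less RNA per cell cannot be told apart.

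Sterol and fatty acid synthesis are switched on together by the SREBP transcription factors, which Srebf1 and Srebf2 encode. When cell membranes hold little cholesterol, the escort protein SCAP carries an SREBP precursor from the endoplasmic reticulum to the Golgi, where it is cut and its active part goes to the nucleus; when sterols are plentiful, INSIG proteins hold SCAP back. The liver X receptors (LXR), which sense oxidized sterols as partners of the retinoid X receptors, switch on Srebf1 and the cholesterol exporters Abca1 and Abcg1.

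The 9 arrays had median intensities of 133.97 to 139.43 over the probe sets with a gene, on the linear scale of the deposited values. LE540 replicate 1 stood apart on the first principal component, at 63.7, with the other arrays between -21.53 and 13.95. The mesenchymal markers of the valve were present: all 11 lay above the lower quartile of every array, Dcn, a collagen-binding proteoglycan, between 3216 and 6256 and Vim, a mesenchymal filament protein, between 4496 and 6611. Their summed intensity was 20870 to 26694 in DMSO, 26495 to 30560 in ATRA and 15453 to 24315 in LE540 arrays, lowest in LE540 replicate 1. Against DMSO these markers were lower with LE540 in 9 of 11 (median log2 change -0.21) and higher with ATRA in 8 of 11 (median 0.25). The part of these differences in the results below was not tested.

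In explants with LE540 28 of the 34 genes were at lower intensity than with DMSO (median log2 change -0.40), whereas with ATRA 21 of 34 were higher than with DMSO (median 0.12). In the 3-group fit over all probe sets the desaturases Scd1 and Scd2 passed, both in ATRA vs LE540, with Scd1 6.84-fold and Scd2 3.95-fold higher with ATRA; no other member did, where 0.603% of all probe sets passed. Fdft1 passed as well once replicate numbers were fitted as a block (adjusted p = 0.0495 in limma), and both desaturase calls were lost when those 2 groups were fitted alone (0.239) or when any 1 DMSO array, ATRA replicate 1 or LE540 replicate 1 was left out. The sterol enzymes Idi1 and Hsd17b7, the SREBP brake Insig1 and the exporter Abca1 were lower in each LE540 array than in any DMSO array, without passing that test. The transcripts of the SREBPs themselves and of their escort Scap lay within 0.10 log2 of each other in the means of all groups.

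**Figure D1:**
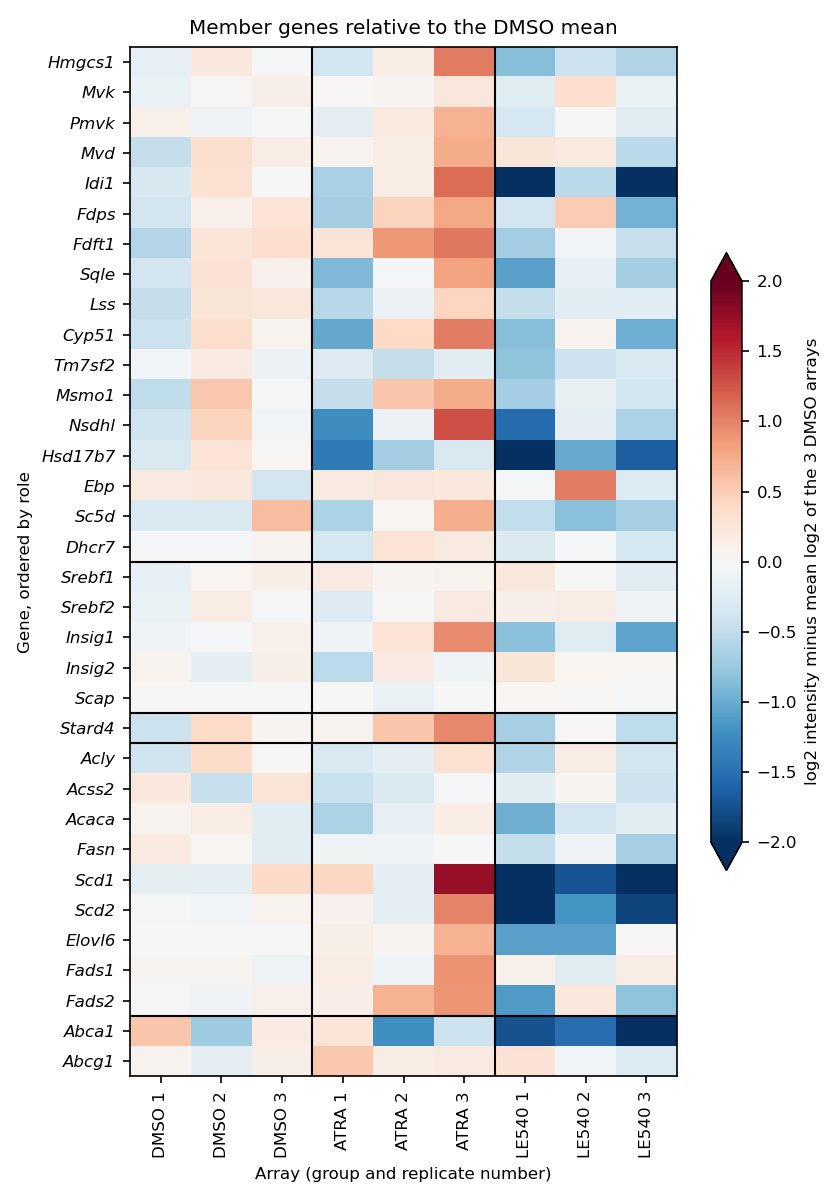
Each row is 1 of the 34 genes and each column 1 array; colour is log2 intensity minus the mean log2 of the 3 DMSO arrays, capped at 2 log2 in either direction, with lines between the roles (sterol enzymes, SREBP regulators, Stard4, fatty acid genes, LXR targets). The ATRA replicate 3 column is mostly red and the LE540 columns 1 and 3 mostly blue, with the deepest blue in Idi1, Hsd17b7, Scd1, Scd2 and Abca1.

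Many of the genes were high or low in the same arrays. Of the 34 genes, 21 had their highest value of all 9 arrays in ATRA replicate 3, whereas 15 had their lowest in LE540 replicate 1 and 10 in LE540 replicate 3. The same counts were not made over all genes, and LE540 replicate 1 stood apart on the first principal component of all probe sets. Whether these counts are particular to the 34 genes was therefore not tested. The mean centred log2 intensity of the 17 sterol enzymes, in the order of the replicate numbers 1, 2 and 3, was -0.13, 0.34 and 0.22 in DMSO, -0.34, 0.26 and 0.76 in ATRA, and -0.60, 0.03 and -0.52 in LE540 arrays. Replicate 1 was the lowest array of each group, and the groups overlap. The 9 fatty acid genes were at 0.17, 0.16 and 0.22 in DMSO, 0.12, 0.14 and 0.81 in ATRA, and -0.78, -0.29 and -0.55 in LE540 arrays, so that here all LE540 arrays lie below all others. The median standard deviation between the 3 arrays of a group was 0.25, 0.43 and 0.34 log2 for the 34 genes in DMSO, ATRA and LE540, against 0.13, 0.15 and 0.20 log2 over all 19934 genes.

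**Figure D2:**
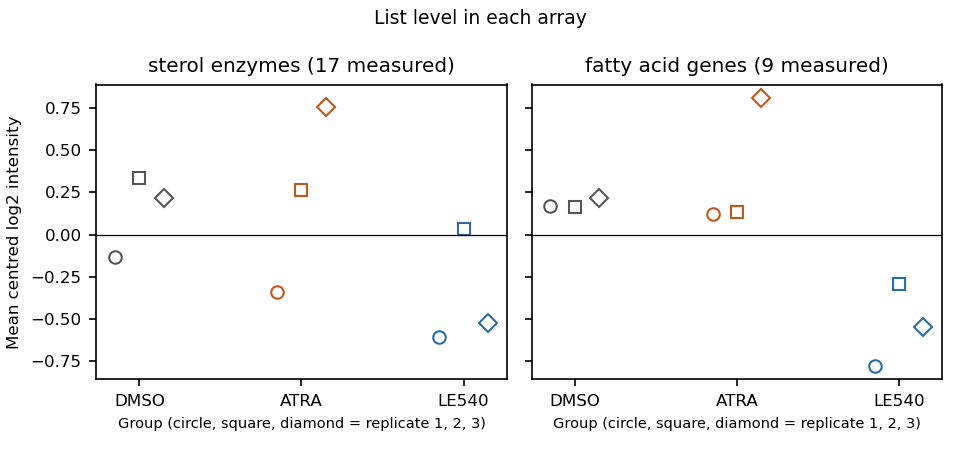
Points are single arrays and the vertical axis is the mean over the list of log2 intensity, each gene centred on its mean over the 9 arrays. The fatty acid genes of the LE540 arrays lie between -0.78 and -0.29, below the other 6 arrays, whereas the sterol enzymes overlap between groups and spread from -0.34 to 0.76 among the ATRA arrays.

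The comparison of LE540 with DMSO sets the receptor antagonist against the control, which may or may not hold its vehicle. Of the 34 genes 28 were lower and 6 higher with LE540, with a median log2 change of -0.40, against a median of 0.02 over all genes, of which 54% were higher. No member passed in limma at a Benjamini-Hochberg adjusted p under 0.1, where 0.0299% of all probe sets passed; at an unadjusted p under 0.05, 9 of the 34 were lower and 0 higher, where 4.33% of all probe sets were lower and 4.47% higher, 8.8% in all. For 10 of the 34 all LE540 arrays lay below all DMSO arrays, and for 0 above, where 5.86% of all probe sets lay below and 6.74% above.

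The sterol enzymes turn acetyl-CoA into cholesterol by way of mevalonate, the isoprenoid pyrophosphates, squalene and lanosterol. With LE540 16 of the 17 measured were lower, with a median log2 change of -0.40. The largest difference was that of Idi1, the isomerase that interconverts the building blocks of isoprenoids, at probe set 10482762. Its intensities were 126, 194 and 159 in DMSO, 99.8, 175 and 340 in ATRA, and 39.7, 108 and 31.2 in LE540 arrays. The LE540 arrays lie below all DMSO arrays, and LE540 replicates 1 and 3 lie below the lower quartile of their arrays (69.1 and 64.6), where signal over background is unknown. The log2 change was -1.62 (SE 0.53, adjusted p = 0.529), and the other Idi1 probe set, 10403413, had -1.80 (SE 0.52, adjusted p = 0.466). The annotation lists the same accessions for both, and whether they share probes is not known here.

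Hsd17b7 (10359917), a ketoreductase of the steps after lanosterol that also reduces estrone, was at 593, 888 and 748 in DMSO, 274, 454 and 592 in ATRA, and 170, 366 and 235 in LE540 arrays. Both treated groups lay below DMSO without overlap, ATRA replicate 3 just under DMSO replicate 1. The log2 change was -1.59 with LE540 (3.00-fold lower, SE 0.34, adjusted p = 0.328) and -0.81 with ATRA (SE 0.34, adjusted p = 0.999). Both values are set against the same DMSO arrays.

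Hmgcs1 (10412466), the synthase that commits acetyl-CoA to mevalonate, was at 681, 874 and 735 in DMSO, 583, 840 and 1560 in ATRA, and 419, 565 and 502 in LE540 arrays. All LE540 arrays lay below all DMSO arrays (log2 change -0.63, SE 0.31, adjusted p = 0.591). Sqle (10424349), squalene epoxidase, a rate-limiting step after the squalene branch, was at 471, 752 and 652 in DMSO, 331, 602 and 1067 in ATRA, and 288, 548 and 385 in LE540 arrays. Its groups overlap (log2 change with LE540 -0.64, SE 0.41, adjusted p = 0.653; -0.42 without LE540 replicate 1). Nsdhl (10600082), a decarboxylating enzyme of the demethylation of lanosterol, was at 282, 503 and 358 in DMSO, 157, 339 and 907 in ATRA, and 128, 325 and 239 in LE540 arrays. Its ATRA arrays alone span the range of all others but LE540 replicate 1 (log2 change with LE540 -0.78, SE 0.59, adjusted p = 0.699; -0.41 without LE540 replicate 1 and -0.50 with array weights). Sc5d (10592585), the desaturase near the end of the pathway, was at 345, 345 and 659 in DMSO, 275, 442 and 709 in ATRA, and 304, 240 and 271 in LE540 arrays. The LE540 arrays lay below all DMSO arrays (log2 change -0.66, SE 0.36, adjusted p = 0.61), and without DMSO replicate 3, the array at 659, the change was -0.35.

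The other sterol enzymes lay closer to DMSO. Tm7sf2 (10465342), a sterol reductase, ranged from 125 to 154 in DMSO and from 77.5 to 110 in LE540 arrays, without overlap, at -0.51 log2 (SE 0.15, adjusted p = 0.502). Cyp51 (10527920), the lanosterol demethylase, was at -0.59 (SE 0.50), Fdft1 (10420730), squalene synthase, at -0.40 (SE 0.30), Msmo1 (10578916), a methyl sterol oxidase, at -0.40 (SE 0.35) and Lss (10364194), which folds squalene epoxide into lanosterol, at -0.30 (SE 0.27). Fdps (10499483), which makes farnesyl pyrophosphate, was at -0.27 (SE 0.44), Dhcr7 (10559312), the last reductase, at -0.23 (SE 0.17), and the mevalonate pathway enzymes Pmvk (10493548), Mvd (10582310) and Mvk (10524555) at -0.18, -0.03 and -0.01. Ebp (10603485), a sterol isomerase, was the 1 sterol enzyme with a higher mean, at 0.23 (SE 0.31), set by LE540 replicate 2 at 343 where the other LE540 arrays read 164 and 139.

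Promoters of sterol genes are known to carry a binding element for SREBP together with CCAAT boxes for the factor NF-Y, which acts with SREBP. RefSeq's promoter table (GRCm38.p6) held 26 of the 34 genes; Scd1, Scd2 and Fdft1 were not among them. In the 250 bases before the start, read on both strands, CCAAT was found for 20 of the 26 genes (76.9%), against 39.5% of 17491 protein-coding genes in the same window. The letters GGGCGG, a core of the element of factor Sp1, were found for 22 of 26 (84.6%, against 45.8%). The letters TCACNCCAC, taken from the SREBP element, were found for 1 of 26 (3.85%, against 1.20%), Hmgcs1. A match describes the letters and is no measured site, and the GC content of these windows was not compared. Only these exact letters within 250 bases were searched, so a gene without a match may still carry an element.

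For 10 genes every LE540 array lay below every DMSO array. Among them, the windows of Abca1 and Acaca held neither CCAAT nor TCACNCCAC, and those of Tm7sf2 and Sc5d held 1 CCAAT each. The windows of 4 others, Hmgcs1, Idi1, Hsd17b7 and Insig1, are printed to show where these letters stand. They run 5′ to 3′ on the gene's strand and end at the base before the start, and capitals mark CCAAT, its reverse complement ATTGG, and TCACNCCAC.
Hmgcs1 (chr13:119690101-119690350, plus strand): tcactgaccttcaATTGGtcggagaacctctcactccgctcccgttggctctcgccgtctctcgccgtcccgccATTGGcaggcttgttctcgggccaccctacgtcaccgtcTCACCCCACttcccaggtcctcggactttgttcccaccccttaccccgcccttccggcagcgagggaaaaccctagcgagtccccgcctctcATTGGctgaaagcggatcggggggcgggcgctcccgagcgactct
Idi1 (chr13:8885356-8885605, plus strand): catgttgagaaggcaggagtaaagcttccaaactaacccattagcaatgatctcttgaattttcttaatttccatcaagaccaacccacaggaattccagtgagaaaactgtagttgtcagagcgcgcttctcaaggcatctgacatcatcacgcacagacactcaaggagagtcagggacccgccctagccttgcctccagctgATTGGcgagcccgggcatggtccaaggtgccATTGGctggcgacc
Hsd17b7 (chr1:169969206-169969455, minus strand): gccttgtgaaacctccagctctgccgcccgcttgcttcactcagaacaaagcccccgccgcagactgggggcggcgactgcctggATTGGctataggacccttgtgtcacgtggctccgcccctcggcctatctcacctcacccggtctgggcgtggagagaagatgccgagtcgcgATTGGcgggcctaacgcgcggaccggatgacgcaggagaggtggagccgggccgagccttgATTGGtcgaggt
Insig1 (chr5:28071162-28071411, plus strand): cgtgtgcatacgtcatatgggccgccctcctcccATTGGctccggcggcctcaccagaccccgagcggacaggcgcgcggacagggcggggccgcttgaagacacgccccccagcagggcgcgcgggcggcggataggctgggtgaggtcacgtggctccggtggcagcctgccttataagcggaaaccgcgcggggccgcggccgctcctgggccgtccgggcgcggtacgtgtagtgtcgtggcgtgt
All matches of CCAAT in these windows read ATTGG on the gene's strand. In Hmgcs1 there were 3, with 232, 171 and 40 bases between match and start, and the SREBP letters lay between the nearer pair, 128 bases from the start. Idi1 had 2, at 40 and 9 bases, Hsd17b7 had 3, at 160, 68 and 7 bases, and Insig1 had 1, at 211 bases. CCAAT also stood in windows of members that were not clearly lower with LE540. Mvk had 5 (log2 change -0.01), Mvd 2 (-0.03) and Ebp 2 (0.23), whereas Scap (0.003) had 0. Whether CCAAT goes with the change was not tested.

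The regulators differed from one another. Insig1 (10520362), which retains SCAP and is itself an SREBP target, was at 446, 461 and 504 in DMSO, 449, 570 and 903 in ATRA, and 262, 398 and 227 in LE540 arrays. All LE540 arrays lay below all others (log2 change from DMSO -0.71, SE 0.27, adjusted p = 0.541). Insig2 (10357280), its paralogue, was between 688 and 852 in DMSO, 547 and 873 in ATRA, and 806 and 930 in LE540 arrays, with a log2 change of 0.11 with LE540 (95% interval -0.28 to 0.51).

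Srebf1 (10386473) was at 170, 197 and 207 in DMSO, 214, 197 and 200 in ATRA, and 222, 191 and 165 in LE540 arrays, and its groups overlap. Its log2 change was 0.10 with ATRA (95% interval -0.20 to 0.39) and 0.01 with LE540 (-0.29 to 0.30). Srebf2 (10425695), the form that mostly serves sterol synthesis, was at 204, 249 and 222 in DMSO, 189, 227 and 255 in ATRA, and 242, 249 and 215 in LE540 arrays. Its log2 change was -0.02 with ATRA (-0.32 to 0.29) and 0.07 with LE540 (-0.24 to 0.37). Scap (10589511) stayed between 371 and 420 in all 9 arrays. The array measures transcripts, not the cleavage of the SREBP precursors.

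Stard4 (10458033), a carrier that moves cholesterol between membranes, followed the sterol enzymes. It was at 234, 408 and 325 in DMSO, 329, 461 and 613 in ATRA, and 199, 321 and 221 in LE540 arrays. The ATRA arrays lay above all LE540 arrays and overlapped those of DMSO, with log2 changes from DMSO of 0.53 with ATRA (SE 0.29, adjusted p = 0.999) and -0.38 with LE540 (SE 0.29, adjusted p = 0.699). The change with ATRA was 0.32 without DMSO replicate 1 and 0.31 without ATRA replicate 3.

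The fatty acid arm was lower with LE540 in 8 of 9 genes, with a median log2 change of -0.53. Scd1 and Scd2 are delta-9 desaturases, which put the first double bond into saturated fatty acids to make oleate and palmitoleate. Scd1 (10467979) was at 344, 347 and 518 in DMSO, 530, 344 and 1324 in ATRA, and 83.8, 120 and 75.2 in LE540 arrays. Scd2 (10463355) was at 404, 397 and 431 in DMSO, 435, 362 and 817 in ATRA, and 102, 180 and 113 in LE540 arrays. For both genes the highest LE540 array lay below the lowest of the other 6. Against DMSO the mean log2 values with LE540 were 4.34-fold lower for Scd1 (log2 change -2.12, SE 0.44, adjusted p = 0.323) and 3.21-fold lower for Scd2 (-1.68, SE 0.31, adjusted p = 0.23). Without LE540 replicate 2 Scd2 fell by 1.93 log2 (adjusted p = 0.0869 in limma). Scd1 and Scd2 are close paralogues, and whether a probe set reads the other's RNA was not tested.

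Elovl6 (10495993), which lengthens palmitate to stearate, the substrate of the desaturases, was at 503, 500 and 509 in DMSO, 545, 525 and 815 in ATRA, and 236, 238 and 507 in LE540 arrays. LE540 replicate 3 lay within the DMSO range, and the other LE540 arrays below all others (log2 change -0.72, SE 0.29, adjusted p = 0.549). Without LE540 replicate 3 it fell by 1.09 (SE 0.19, limma adjusted p = 0.0801). Fads2 (10465895), the delta-6 desaturase of polyunsaturated fatty acids, was at 337, 326 and 369 in DMSO, 375, 559 and 635 in ATRA, and 157, 398 and 197 in LE540 arrays. Its ATRA arrays lay above all DMSO arrays, and its LE540 arrays overlapped them (log2 change -0.57, SE 0.33, adjusted p = 0.626). Fads1 (10461439), the delta-5 desaturase, ranged from 354 to 393 in DMSO and from 323 to 419 in LE540 arrays, at 0.01 log2 (95% interval -0.52 to 0.53).

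Acly, Acss2, Acaca and Fasn supply acetyl-CoA and build palmitate. Fasn (10393970), fatty acid synthase, was at 355, 324 and 268 in DMSO, 295, 297 and 317 in ATRA, and 225, 298 and 198 in LE540 arrays, with overlap (log2 change with LE540 -0.41, SE 0.16, adjusted p = 0.548). Acaca, the carboxylase that makes malonyl-CoA, was lower in each LE540 array than in any DMSO array at both probe sets, by -0.53 log2 at 10394538 (SE 0.24) and -0.27 at 10379820 (SE 0.16). With ATRA the dimmer probe set 10379820 was at -0.51 (SE 0.16, adjusted p = 0.889), without overlap, and 10394538 at -0.21 (SE 0.24), with overlap. Acly (10391146), which makes cytosolic acetyl-CoA from citrate, was at -0.28 with LE540 (SE 0.26), and Acss2 (10477649), which makes it from acetate, at -0.20 (SE 0.21).

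Abca1 (10512949), which loads cholesterol onto lipid-poor apolipoprotein, was at 527, 219 and 403 in DMSO, 428, 154 and 267 in ATRA, and 108, 125 and 75.9 in LE540 arrays. The LE540 arrays lay below all 6 others, and replicate 2 was the lowest array of both DMSO and ATRA. The mean was 3.57-fold lower with LE540 than with DMSO (log2 change -1.84, SE 0.42, adjusted p = 0.369). Abcg1 (10443730), which passes cholesterol to mature lipoprotein particles, ranged from 151 to 187 in DMSO, 191 to 249 in ATRA, and 142 to 210 in LE540 arrays. Its ATRA arrays lay above all DMSO arrays (log2 change 0.29, SE 0.17, adjusted p = 0.999), and its change with LE540 was -0.01 (95% interval -0.41 to 0.38).

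**Figure D3:**
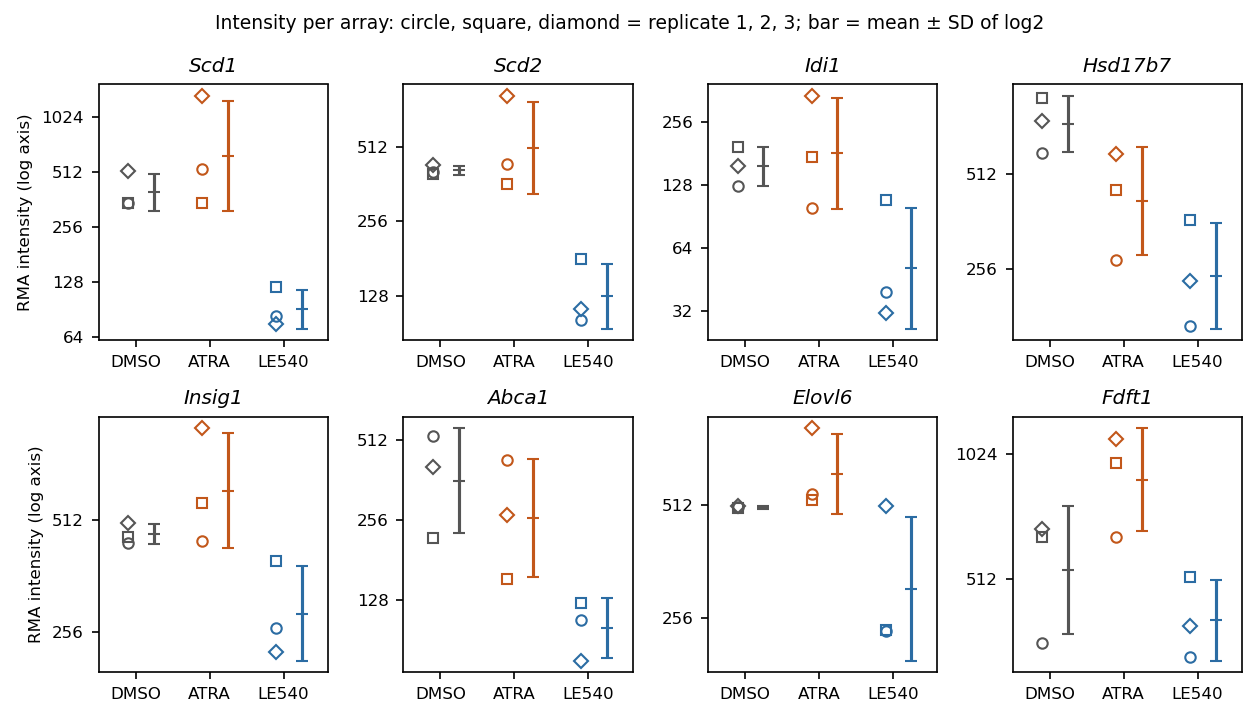
Points are the intensities of single arrays on a log axis, circle, square and diamond for replicates 1, 2 and 3, and bars are the mean and SD of the log2 values of the 3 arrays of a group. In all panels but those of Elovl6 and Fdft1 the LE540 arrays lie below all DMSO arrays, and the diamond of ATRA replicate 3 tops its group in all panels but that of Abca1.

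The comparison of ATRA with DMSO asks what added retinoic acid changed. Of the 34 genes 21 were higher and 13 lower, with a median log2 change of 0.12 against -0.01 over all genes. No member passed in limma, where 0.0812% of all probe sets did (0.0769% higher and 0.00427% lower with ATRA). At an unadjusted p under 0.05, 1 was higher (Fdft1) and 1 lower (Hsd17b7), where 2.34% and 2.36% of all probe sets were, 4.7% in all. All ATRA arrays lay above all DMSO arrays for 3 genes (Elovl6, Fads2 and Abcg1) and below for 2 (Hsd17b7 and Tm7sf2), where 4.97% and 6.34% of all probe sets did. Sterol enzymes were higher in 12 of 17 (median 0.14) and fatty acid genes in 5 of 9 (median 0.29). Both medians moved with single arrays: without ATRA replicate 3 they were -0.12 and -0.05, and the median of all members was -0.08. The sterol median was also 0.02 without DMSO replicate 1 and 0.05 without ATRA replicate 2. Without ATRA replicate 1 it was 0.44, and that of all members 0.38; with array weights the medians were 0.40 for sterol enzymes, 0.41 for fatty acid genes and 0.29 for all members.

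Fdft1 (10420730), which joins farnesyl units into squalene and so commits them to sterols, was at 357, 644 and 676 in DMSO, 644, 978 and 1114 in ATRA, and 330, 517 and 392 in LE540 arrays. The lowest ATRA array equals DMSO replicate 2 within rounding, so the groups overlap (log2 change with ATRA 0.73, SE 0.30, adjusted p = 0.999). The dimmer probe set of the gene, 10412909, was at 0.51 (SE 0.33). Scd1 was at 0.65 with ATRA (SE 0.44, adjusted p = 0.999), and at 0.11 without ATRA replicate 3. Insig1 was at 0.39 (SE 0.27), Abca1 at -0.47 (SE 0.42), Fasn at -0.05 (95% interval -0.42 to 0.32) and Sqle at -0.04 (-0.96 to 0.89). Without ATRA replicate 3 Insig1 was at 0.11, and without ATRA replicate 1 at 0.61. Abca1 ran from -0.83 without ATRA replicate 1 or DMSO replicate 2 to -0.19 without DMSO replicate 1 and -0.09 without ATRA replicate 2. Scd1 was at 1.08 without ATRA replicate 2, Fdft1 at 0.43 without DMSO replicate 1, and Hsd17b7 at -0.50 without ATRA replicate 1. Sqle had either sign with 1 array left out, from -0.46 without ATRA replicate 3 to 0.39 without ATRA replicate 1.

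The comparison of ATRA with LE540 sets the ligand against the blocker. Of the 34 genes 29 were higher with ATRA, with a median log2 change of 0.43 against -0.03 over all genes. In limma 2 genes passed, both higher with ATRA, where 0.603% of all probe sets passed, 0.41% in that direction and 0.192% in the other. At an unadjusted p under 0.05 there were 11 higher and 0 lower, where 4.82% and 4.72% of all probe sets were, 9.54% in all. For 8 genes all ATRA arrays lay above all LE540 arrays and for 0 below, where 5.24% and 6.24% of all probe sets did.

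Fold changes come from the means of log2 values, so they differ from the ratio of the linear means printed beside them. Scd1 was 6.84-fold higher with ATRA than with LE540 (linear means 733 ± 521 against 93.0 ± 23.7, SD, n = 3 arrays each, log2 change 2.77, SE 0.44, limma adjusted p = 0.0539). Scd2 was 3.95-fold higher (linear means 538 ± 245 against 132 ± 42.0, log2 change 1.98, SE 0.31, adjusted p = 0.0502). The DMSO arrays of both genes lie within the range of the ATRA arrays, and the LE540 arrays below it. Neither gene passed without DMSO replicate 1 (adjusted p = 0.121 for both), 2 (0.105) or 3 (0.109), without ATRA replicate 1 (0.13 for Scd1 and 0.118 for Scd2) or without LE540 replicate 1 (0.179 and 0.167), nor when the ATRA and LE540 arrays were fitted alone (0.239 for both), while over these and the other alternatives the log2 changes ran from 2.23 to 3.20 and from 1.63 to 2.23.

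Among the rest the differences were largest for Idi1 at 1.82 (SE 0.53, adjusted p = 0.295), Abca1 at 1.37 (SE 0.42, adjusted p = 0.327), Fads2 at 1.15 (SE 0.33, adjusted p = 0.281) and Fdft1 at 1.13 (SE 0.30, adjusted p = 0.248). Insig1 was at 1.09 (SE 0.27, adjusted p = 0.214), Elovl6 at 1.01 (SE 0.29, adjusted p = 0.297), Stard4 at 0.91 (SE 0.29, adjusted p = 0.344) and Hmgcs1 at 0.89 (SE 0.31, adjusted p = 0.397; 0.51 without ATRA replicate 3). Of these, Abca1, Fdft1, Insig1, Elovl6, Stard4 and Hmgcs1 had all ATRA arrays above all LE540 arrays, as did Scd1 and Scd2. At the dimmer Fdft1 probe set, 10412909, the 2 groups overlapped (log2 change 1.08, SE 0.33, limma adjusted p = 0.331). Idi1 overlapped at its brighter probe set. At its dimmer one, 10403413, all ATRA arrays lay above all LE540 arrays (log2 change 1.99, SE 0.52, limma adjusted p = 0.242). With the replicate number as a block Fdft1 passed too (adjusted p = 0.0495), with Scd1 at 0.0622 and Scd2 at 0.0695. Without LE540 replicate 2 Insig1 (0.096), Fads2 (0.0384) and Idi1 (0.0877) joined Scd1 and Scd2, and without LE540 replicate 3 Elovl6 (0.0497) did.

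Deviations of same-numbered arrays correlated at 0.261 to 0.282 for ATRA and LE540, and at 0.143 to 0.342 for ATRA and DMSO. Only ATRA and LE540 were also compared number by number, with the same arrays as in the fit above. Whether the numbers pair the arrays was not tested. In 18 of the 34 genes the ATRA array was higher than the LE540 array of its number in 3 of 3 pairs, among them 8 of 17 sterol enzymes and 6 of 9 fatty acid genes, and in 0 genes it was lower in 3 of 3; over all probe sets 13.5% were higher and 19.3% lower in all pairs. The pairs differed in size by gene. Scd1 was at 2.66, 1.52 and 4.14 log2 in pairs 1, 2 and 3, Scd2 at 2.09, 1.01 and 2.85, and Idi1 at 1.33, 0.69 and 3.44. Insig1 was at 0.78, 0.52 and 1.99 and Cyp51 at -0.17, 0.33 and 2.01. These 5 were widest in pair 3, whereas Elovl6, at 1.21, 1.14 and 0.68, was narrowest there and Abca1, at 1.99, 0.30 and 1.81, was widest in pair 1.

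**Figure D4:**
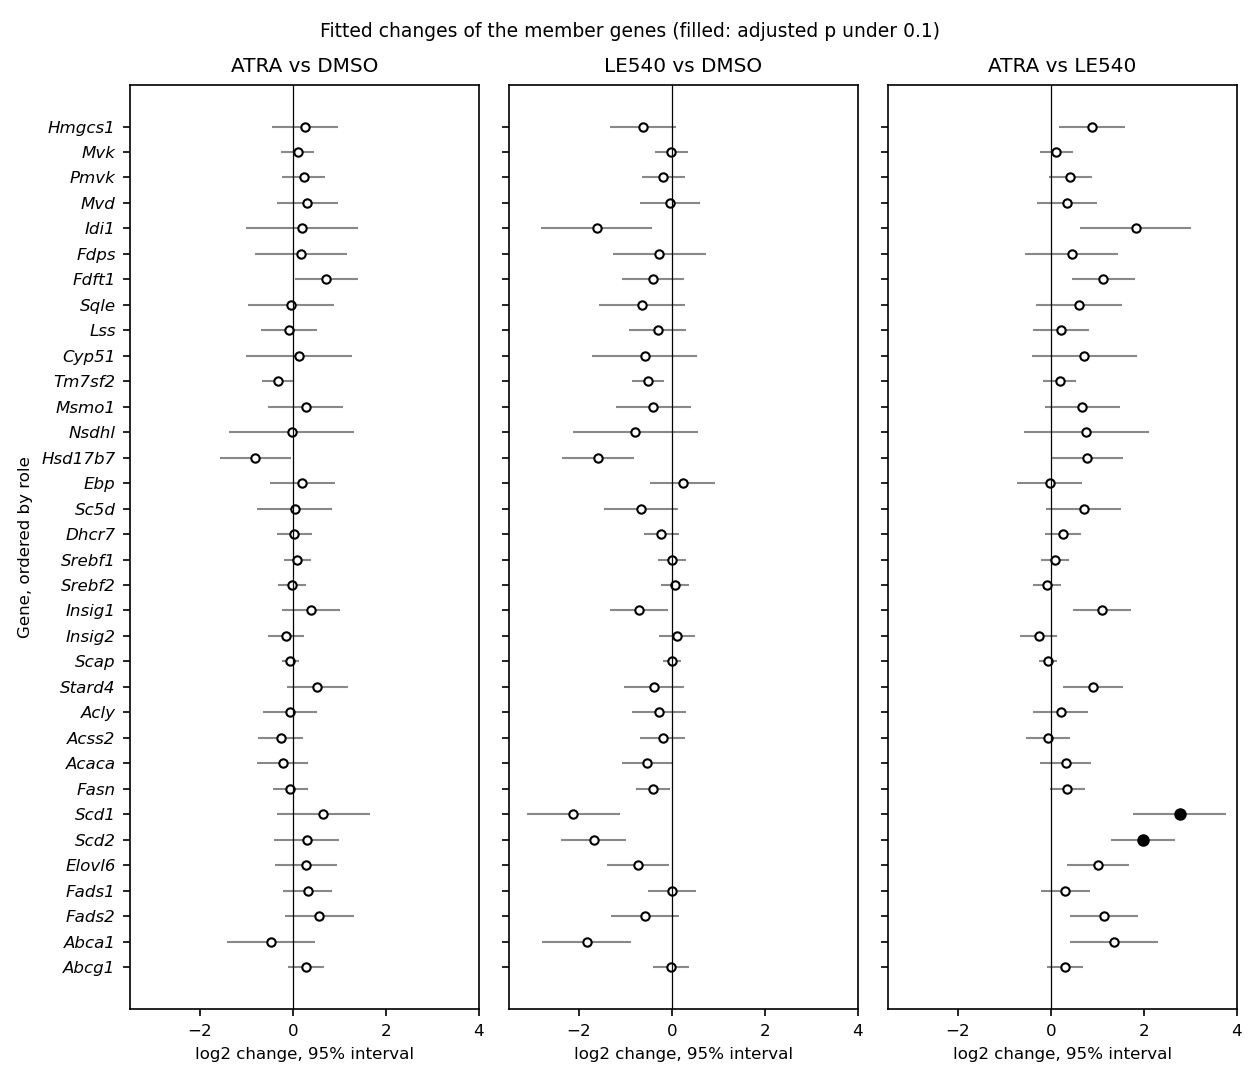
Points are fitted log2 changes of the 34 genes in the 3 comparisons and lines their 95% intervals from limma; filled points passed at an adjusted p under 0.1. The 2 filled points are Scd1 and Scd2 in ATRA vs LE540, and the points of LE540 vs DMSO lie mostly left of 0.

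Other genes of the same pathways were taken from lists drawn up by function. Of 26 other fatty acid and glycerolipid genes 16 were higher with LE540 than with DMSO (median log2 change 0.04), and of 7 other isoprenoid genes 1 (median -0.04). In the 3 comparisons 0 genes of these lists passed in limma. In LE540 vs DMSO 1 fatty acid gene was higher and 1 lower at an unadjusted p under 0.05, and 0 isoprenoid genes either way. Of all probe sets 4.47% were higher and 4.33% lower at that level. The largest changes with LE540 were those of Elovl7, an elongase of long chains, at 0.92 (SE 0.31, adjusted p = 0.535) and Hacd3, a dehydratase of chain elongation, at -0.70 (SE 0.17, adjusted p = 0.37). Of 13 genes that process SREBP or sense sterols 8 were lower with LE540 (median -0.13, 0 passed in limma). At an unadjusted p under 0.05, 1 was higher and 3 lower, where 4.47% of all probe sets were higher and 4.33% lower. The 1 higher was Paqr3, which anchors SCAP at the Golgi, at 0.53 (SE 0.22), and the 3 lower, named after their values were seen, were Rnf145, a sterol-responsive ubiquitin ligase, at -0.44 (SE 0.12), Sec24c at -0.36 and Faf2 at -0.47. The largest change of the list, that of Mbtps1, the protease that makes the first cut in SREBP, at -0.59 (SE 0.31), was not among them.

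Of 21 other LXR and sterol handling genes 12 were lower with LE540 (median -0.01, 0 passed in limma). At an unadjusted p under 0.05, 3 were higher and 1 lower, where 4.47% of all probe sets were higher and 4.33% lower. Mylip, an LXR target that marks lipoprotein receptors for degradation, had a mean intensity of 327 ± 17.3 with DMSO, 255 ± 52.0 with ATRA and 171 ± 26.1 with LE540 (SD over 3 arrays, log2 change with LE540 -0.94, SE 0.17, limma adjusted p = 0.23). Stard5, a sterol-binding relative of Stard4, was at 0.97 with LE540 (SE 0.31, adjusted p = 0.529). Ch25h, which makes 25-hydroxycholesterol, was at 1.03 with LE540 and 1.00 with ATRA (SE 0.37 each), both against the same DMSO arrays. Cyp7b1, which hydroxylates oxysterols further, had means of 74.6 ± 12.8 with DMSO, 180 ± 67.7 with ATRA and 58.6 ± 11.4 with LE540, at 1.56 in ATRA vs LE540 (SE 0.30), at the threshold without passing.

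Markers of other cell types were read in the same arrays. Adipocyte markers, of a cell type that makes much lipid, were summed at 1588 to 1970 in DMSO, 2415 to 2932 in ATRA and 1382 to 2170 in LE540 arrays; of 9 measured, Pparg, a regulator of fat cell genes, rose with ATRA (log2 change from DMSO 2.58, SE 0.18, limma adjusted p = 0.00213). The list's median change with ATRA was 0.04, with 7 of 9 higher: Fabp4, a fatty acid carrier, was at 1.33 (SE 0.44, adjusted p = 0.894) and Cebpa, another regulator of fat cells, at -0.36 (SE 0.15, adjusted p = 0.999), while Adipoq and Lep, which define fat cells, lay below the lower quartile of all 9 arrays. Endothelial markers were higher with ATRA in 10 of 10 (summed 1586 to 3024 in DMSO, 2152 to 5386 in ATRA, 1289 to 2915 in LE540) and with LE540 in 5 of 10. Cardiomyocyte markers were lower with ATRA in 9 of 12 and higher with LE540 in 7 of 12, with sums of 14180 to 28643 in DMSO, 13639 to 23891 in ATRA and 13907 to 24502 in LE540 arrays. Macrophage markers were lower with LE540 in 8 of 10, with sums of 1725 to 2741, 1832 to 2366 and 1990 to 2855. Schwann cell and melanocyte markers were higher with LE540 in 4 of 6 and erythroid markers in 2 of 3.

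In ATRA vs LE540, where Scd1 and Scd2 passed and the median of the lipid genes was 0.43, the mesenchymal markers of the valve were higher with ATRA in 10 of 11, with a median log2 change of 0.54, and Vcan, a matrix proteoglycan, passed (1.29, SE 0.21, limma adjusted p = 0.0608). Endothelial markers were higher in 10 of 10 (median 0.40) and cardiomyocyte markers lower in 10 of 12 (median -0.44). Macrophage markers were higher in 6 of 10, Schwann cell and melanocyte markers in 4 of 6, adipocyte markers in 4 of 9, with Pparg passing (2.71, adjusted p = 0.00138), and erythroid markers in 1 of 3. Their part in the differences of the lipid genes was not tested.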

How the data were processed

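The authors deposited an intensity for each probe set of each array, summarized by RMA in Affymetrix Expression Console 1.1, per the submitters' processing notes. Intensities ran from 4.09 to 17798.24, a linear scale, so log2 was taken. Neither annotation nor build is given in the sources used here; probe sets were named through the platform's annotation table, which gave 1 symbol to 21780 of 28270 rows, several to 1617 and none to 4873. The 23397 probe sets with a symbol were fitted in limma 3.58.1 (R 4.3.3) with 3 groups over 9 arrays (6 residual and 2.725 prior degrees of freedom), two-sided; SE and 95% intervals are the fit's. The threshold, an adjusted p under 0.1, is that of the series' design text; Scd1 and Scd2 also passed its fold change of 2. List medians use 1 probe set for each of 19934 genes, the brightest. The fit was tested on simulated data. Their noise was drawn independently for each probe set and array, so shifts shared by many genes were not covered.

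The members and lists were chosen with earlier results of these data known, so no list was tested. Values of every array are given for members that passed, the 6 largest changes of each comparison, those over 1.5-fold without overlap, and Srebf1, Srebf2, Insig1, Sqle, Fasn, Scd1 and Abca1.

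Same-numbered arrays' deviations from their group means correlated across probe sets at 0.143, 0.342 and 0.22 for ATRA and DMSO. For ATRA and LE540 the values were 0.261, 0.282 and 0.269, and for LE540 and DMSO 0.00946, 0.215 and 0.126. Arrays of different number were not compared in this way, so whether the numbers pair the arrays was not tested. The labels call the arrays biological replicates and do not say what a number shares. The number of arrays limits the precision. Alternatives are given in the closing section.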

Additional observations from a re-analysis of the deposited data

How the results depend on the processing

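No member passed in ATRA vs DMSO under any of the 18 alternatives. In LE540 vs DMSO 0 passed under the 9 other settings and 0 to 1 with 1 array left out. In ATRA vs LE540 the count of 2 became 3 with the replicate block, 0 when only the 2 groups compared were fitted and 0 to 5 with 1 array left out; quantile normalization, median centring, leaving out dim probe sets, testing all rows, another prior, array weights and averaging a gene's probe sets left it at 2. Array weights moved medians in ATRA vs DMSO, as given above. The replicate block changed no call of a member other than that of Fdft1. Leaving out 1 array moved the median log2 change of fatty acid genes in ATRA vs DMSO between -0.0503 and 0.40, and in ATRA vs LE540 that of all members between 0.19 and 0.75 and of sterol enzymes between 0.19 and 1.03; both low ends are those without ATRA replicate 3 and both high ends those without ATRA replicate 1. In LE540 vs DMSO the median of sterol enzymes was -0.65 without DMSO replicate 1, -0.27 without DMSO replicate 2 and -0.26 without LE540 replicate 1; without that array the median was -0.25 for all members and -0.30 for fatty acid genes, and in ATRA vs LE540 that of sterol enzymes was 0.39. The cause of these shifts was not tested. Without dim probe sets 29 of the 34 genes were left, and Idi1 had no value. In its LE540 arrays Idi1 is dim, which leaves the size of its change uncertain.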
